A study of Mus musculus with 2 samples.

Results

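The genes of AMPA and kainate receptors were described in the granule layer of the mouse cerebellum, taking the 4 AMPA receptor genes (Gria1 to Gria4) and the 5 kainate receptor genes (Grik1 to Grik5) by symbol. All 9 were found among the 43346 rows with an Ensembl gene ID. RNA came from 2 areas of the layer cut out by laser capture from wild-type adult male tissue of the B6NCrl mouse strain (C57Bl6), 8 months old and with no treatment in the labels, each 18000 square microns with a starting quantity of 50 cells. Both areas are in 1 group, share a donor label and are numbered as biological replicates 1 and 2, here area 1 and area 2, and the number of animals is not stated. Each library was made from total RNA by Smart-seq, which copies and amplifies whole polyadenylated transcripts, and an area holds many cells although the labels call the assay single cell RNA-seq. No second condition exists, so levels are described as TPM (transcripts per 1e6, a level per transcript length) in each area and as mean ± SD (n = 2 areas), and that SD may hold technical spread only.

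AMPA receptors are glutamate-gated cation channels that carry most fast excitatory transmission in the brain, and each channel is assembled from Gria gene products. The Gria2 product makes AMPA receptors nearly impermeable to calcium once its pore codon has been recoded by RNA editing. Kainate receptors are related channels in which the products of Grik1, Grik2 and Grik3 can form channels alone, whereas those of Grik4 and Grik5 need one of these as a partner. In cerebellar granule neurons, AMPA receptors respond to glutamate from mossy fibres and reach the membrane with the help of stargazin, the product of Cacng2.

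The libraries held 19962271 gene counts in area 1 and 19261911 in area 2, and a count of 0 allowed up to 0.150 and 0.156 counts per 1e6 gene counts (CPM). Granule neuron markers fitted the label: 6 of 6 were detected in both areas, their summed level was 2023 TPM in area 1 and 2251 TPM in area 2, and Gabra6, which encodes a GABA receptor subunit of these cells, stood at 1006 ± 114 TPM. Other cells were present too. Markers of Bergmann glia and astrocytes summed to 502 and 465 TPM, those of oligodendrocytes to 545 and 673 TPM, those of Purkinje cells to 358 and 426 TPM, those of unipolar brush cells to 74.9 and 99.8 TPM and those of Golgi cells to 47.35 and 34.95 TPM. In such areas, fewer cells of a type and less RNA per cell cannot be told apart.

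The subunits fell at 3 levels of expression, with Gria2, Gria4 and Grik2 high, Grik5 and Gria3 low, and Grik1, Grik3, Gria1 and Grik4 close to 0. Of the 9 genes, 5 were detected in both areas (a TPM of 1 or more with an expected count of 5 or more), against 50.4% of 21474 protein-coding genes. The median over the 9 was 3.02 TPM, beside 1.42 TPM over all protein-coding genes. The plot of subunit levels by area shows these 3 steps.

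**Figure D1:**
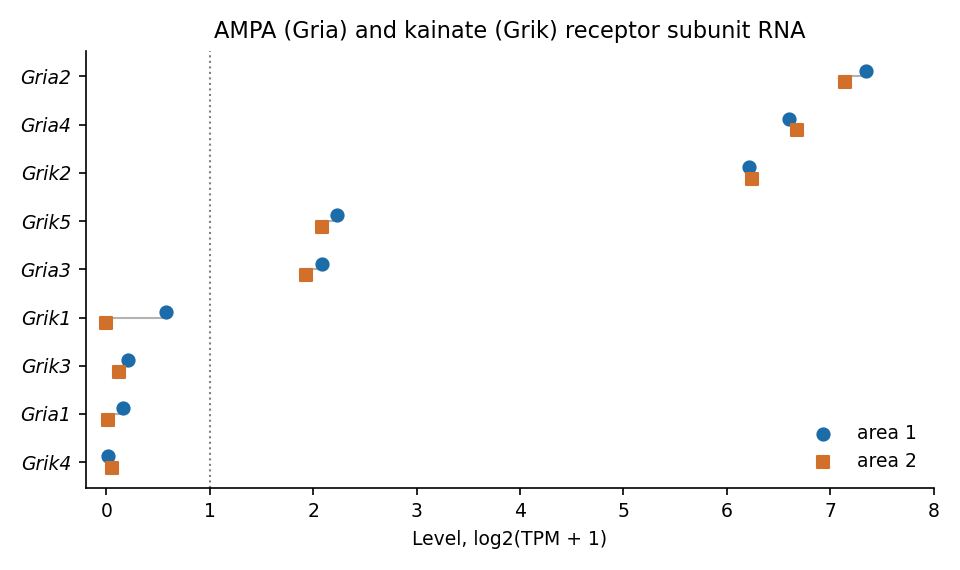
Level of each AMPA (Gria) and kainate (Grik) receptor subunit gene as log2(TPM + 1), with a circle for area 1 and a square for area 2; the dotted line marks 1 TPM. Gria2, Gria4 and Grik2 lie between 73.4 and 161 TPM, Grik5 and Gria3 between 2.81 and 3.69 TPM, and the other 4 genes below 1 TPM in both areas.

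Gria2, the subunit that limits calcium entry, was the most abundant of the 9. It had 161.4 TPM in area 1 and 139.9 TPM in area 2 (151 ± 15.2 TPM), from 13304 and 11484 expected counts, and ranked 814 among 21474 protein-coding genes (ENSMUSG00000033981.10, GRCm38, chr3:80681450-80802835, minus strand). Both areas placed it above every other subunit.

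Gria4, an AMPA subunit known for fast channel kinetics in cerebellar neurons, followed with 96.1 TPM in area 1 and 101.4 TPM in area 2 (98.8 ± 3.73 TPM), from 5927 and 5977 counts (ENSMUSG00000025892.11, chr9:4417896-4796234, minus strand). It lay higher than 94.3% of protein-coding genes. The mean of Gria2 was 1.53 times that of Gria4, and their values did not overlap between areas.

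Gria3, an AMPA subunit found widely in the forebrain, was far lower at 3.23 TPM in area 1 and 2.81 TPM in area 2 (3.02 ± 0.297 TPM), from 240 and 208 counts (ENSMUSG00000001986.12, chrX:41400854-41678601, plus strand). Gria1, a subunit central to hippocampal synaptic plasticity, had 0.12 TPM in area 1 and 0.01 TPM in area 2, from 8 counts and 1 count (ENSMUSG00000020524.12, chr11:57011387-57330244, plus strand). It was not detected by the threshold in either area, and too few counts were present for a test. Its level is poorly resolved: the deposited intervals, of unstated level, ran from 0.117 to 1.31 TPM in area 1 and from 0.0355 to 1.15 TPM in area 2. The deposited posterior mean TPM, another estimate of level, was 0.61 and 0.49.

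The AMPA receptor RNA of the layer was thus almost wholly Gria2 and Gria4. Gria2 took 61.9% of AMPA receptor TPM in area 1 and 57.3% in area 2 (59.6% ± 3.23), and Gria4 took 36.9% and 41.5% (39.2% ± 3.32). Gria3 took 1.24% and 1.15%, and Gria1 took 0.046% and 0.0041%, the latter from 8 counts and 1 count and so not resolved. Gria2 held the larger share in both areas.

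Grik2, a kainate subunit that forms channels alone or with the Grik5 product, was the third most abundant of the 9. It had 73.4 TPM in area 1 and 74.7 TPM in area 2 (74.05 ± 0.863 TPM), from 4686 and 4993 counts (ENSMUSG00000056073.10, chr10:49094833-49788766, minus strand), above 92.5% of protein-coding genes. The mean of Gria4 was 1.33 times that of Grik2, with no overlap between areas.

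Grik5, a partner subunit that gives kainate receptors high affinity for their ligand, had 3.69 TPM in area 1 and 3.24 TPM in area 2 (3.47 ± 0.318 TPM), from 236 and 202 counts (ENSMUSG00000003378.8, chr7:25009849-25072346, minus strand). The mean of Grik2 was 21.4 times that of Grik5. Grik5 and Gria3 were neighbours in the order, with means 1.15 times apart, and the intervals the authors deposited for them, of unstated level, overlapped in both areas, so these data do not order them.

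Grik1, a kainate subunit that forms channels without a partner, had 0.49 TPM from 21 counts in area 1 and was listed at 0 in area 2 (ENSMUSG00000022935.10, chr16:87895900-88290265, minus strand). Grik3, a kainate subunit of low agonist sensitivity, had 0.16 TPM in area 1 and 0.09 TPM in area 2, from 25 and 14 counts (ENSMUSG00000001985.9, chr4:125490700-125714173, plus strand). Grik4, the other partner subunit, had 0.01 TPM from 1 count in area 1 and 0.04 TPM from 4 counts in area 2 (ENSMUSG00000032017.10, chr9:42518135-42944493, minus strand). None of these 3 genes was detected by the threshold. With Gria1 they formed the bottom of the order, where each gene's values overlapped those of its neighbour.

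Kainate receptor RNA was therefore mostly Grik2, which took 94.4% of kainate receptor TPM in area 1 and 95.7% in area 2 (95.04% ± 0.900), while Grik5 took 4.74% and 4.15% (4.45% ± 0.418). Summed over subunits, AMPA receptor genes reached 261 TPM in area 1 and 244 TPM in area 2, and kainate receptor genes 77.8 and 78.0 TPM. The AMPA sum was 3.35 and 3.13 times the kainate sum. Both sums cover all transcripts of each gene, with AMPA forms that do not hold the whole receptor frame included. Kainate genes made up 23.0% and 24.2% of the combined level (23.6% ± 0.887).

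Flip and flop are a pair of alternative exons in the ligand-binding part of every AMPA subunit, of which a mature channel transcript carries one, and they set how fast the channel closes and desensitizes. Each is 115 bases long, and the flip exon is known by a serine codon where the flop exon has one for asparagine. The exons of Gria2 and Gria4 are shown because the splice forms below are told apart by them. In GENCODE M21 on GRCm38, minus strand, the Gria2 flip exon is chr3:80690404-80690518 and its flop exon chr3:80691320-80691434, and the Gria4 flip exon is chr9:4427030-4427144 and its flop exon chr9:4432773-4432887. Capitals mark the bases that differ between flip and flop of the same gene.
Gria2 flip: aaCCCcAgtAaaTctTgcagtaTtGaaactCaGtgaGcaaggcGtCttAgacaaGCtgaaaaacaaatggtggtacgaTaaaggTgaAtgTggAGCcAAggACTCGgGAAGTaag
Gria2 flop: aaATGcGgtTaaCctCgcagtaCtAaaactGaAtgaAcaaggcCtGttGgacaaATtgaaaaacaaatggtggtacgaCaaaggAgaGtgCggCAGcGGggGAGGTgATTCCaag
Gria4 flip: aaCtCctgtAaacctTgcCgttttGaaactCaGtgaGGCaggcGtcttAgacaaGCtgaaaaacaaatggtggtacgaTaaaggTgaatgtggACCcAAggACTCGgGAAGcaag
Gria4 flop: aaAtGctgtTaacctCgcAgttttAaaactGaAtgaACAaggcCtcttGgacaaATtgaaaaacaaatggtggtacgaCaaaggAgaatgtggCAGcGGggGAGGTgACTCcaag
Flip and flop differed at 36 of 115 bases in Gria2 and at 31 in Gria4. Between the genes, the flip exons differed at 9 bases and the flop exons at 7, fewer than between flip and flop of either gene.

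In Gria2, the transcript with the flip exon had the higher level per length and the transcript with the flop exon held more counts. Gria2-202, the flip form, had 45.8 TPM in area 1 and 31.7 TPM in area 2. Gria2-201, the flop form, had 28.4 and 27.5 TPM. The flip share of Gria2 TPM was 63.5% in area 1 and 56.9% in area 2 (60.2% ± 4.66). It counts Gria2-203, a form with both exons, on the flip side. With protein-coding transcripts only, which leaves that form out, the share was 61.7% and 53.6% (57.6% ± 5.73). By expected counts the flip share was 36.55%, with the 227 and 272 counts of Gria2-203 again on the flip side. Gria2-202, the flip form, had 3082 and 2076 counts, and Gria2-201, the flop form, had 5006 and 4704. These transcripts also differ in annotated length: Gria2-201 runs 7268 bases past its coding part and Gria2-202 runs 923, so exon choice and the 3′ end cannot be told apart here.

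In Gria4, where the annotated 3′ ends differ little (2253 bases past the coding part for flop and 2256 for flip), the estimated level of flop was the higher one. Gria4-201, the flop form, had 28.95 TPM in area 1 and 23.9 TPM in area 2, and Gria4-202, the flip form, had 13.2 and 18.6 TPM. The flip share was 31.25% in area 1 and 43.8% in area 2 (37.5% ± 8.84). By counts its mean was also 37.5%, as it must be when both forms are counted at the same length of 5441 bases. Flop had 2650 counts and flip 1205 in area 1, with deposited assignment SDs of 301 and 300.2 counts. In area 2 flop had 2125 and flip 1653, with SDs of 311 and 312 counts, so the order of the forms there lay within the uncertainty of read assignment. Flip counts differed between areas by 449, against a combined deposited assignment SD of 433, so this shift was about as large as the uncertainty of sharing reads between the forms. For Gria2 the flip counts differed by 1005, against an assignment SD of 119. Neither difference is scaled to library size, and all Gria2 counts together were 13304 in area 1 and 11484 in area 2. The assignment SD covers only the sharing of reads between forms and not the spread between areas or of amplification.

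Gria3 had too few counts to place its exons firmly. Its flip form Gria3-201 had 0.72 TPM in area 1 and 1.08 TPM in area 2, and its flop form Gria3-202 was listed at 0 in area 1 and had 0.85 TPM in area 2, while the other flop form, Gria3-209, was listed at 0 in both. Gria3-206, annotated as a target of nonsense-mediated decay and carrying both exons, had 1.97 and 0.88 TPM from 171 and 74.7 counts, with assignment SDs of 47.3 and 36.0 counts. Gria2 has such a form as well, Gria2-203, at 3.69 TPM in area 1 and 4.57 TPM in area 2.

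**Figure D2:**
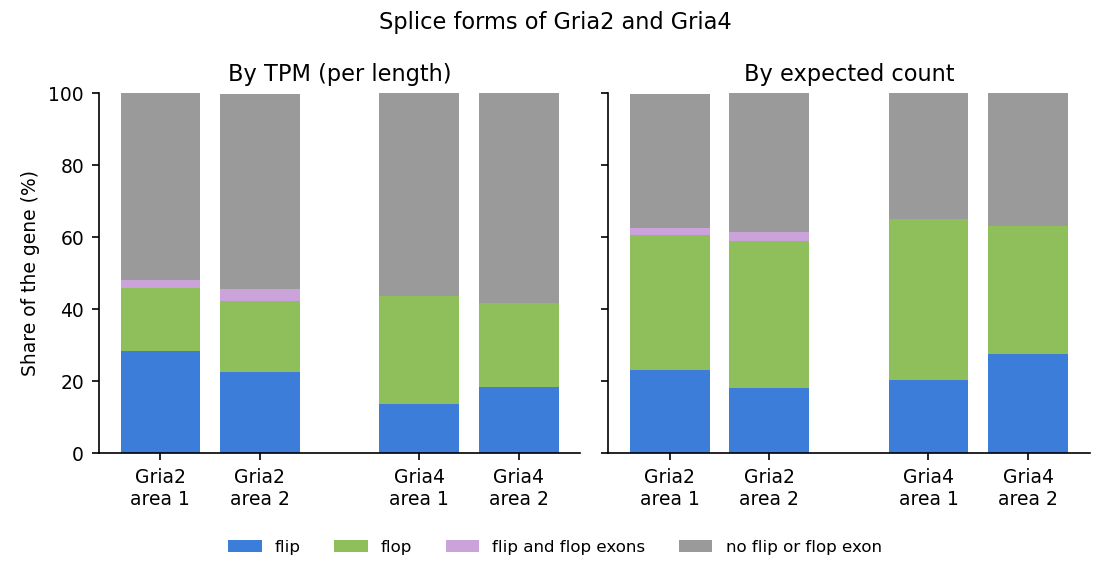
Share of each gene's TPM (left) and expected count (right), in percent, held by transcripts with the flip exon, the flop exon, both exons or neither, for Gria2 and Gria4 in area 1 and area 2. Forms with neither exon take 51.7% to 58.1% of TPM in all 4 bars on the left and 35.0% to 38.6% of counts in all 4 on the right.

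For both genes, most of the TPM belonged to transcripts that end before the flip and flop exons. These forms took 51.7% of Gria2 TPM in area 1 and 54.4% in area 2 (53.05% ± 1.89), and 56.2% and 58.1% of Gria4 TPM (57.2% ± 1.37). By expected counts, in which long transcripts weigh more, the means were 38.05% and 35.9%. No such transcript holds the whole receptor frame.

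The most abundant Gria2 transcript was Gria2-206, annotated as a retained intron, with 74.7 TPM in area 1 and 67.7 TPM in area 2 from 4302 and 3794 counts. It held 46.3% and 48.4% of the gene's TPM. It keeps to exon 13 of 16 and then runs on for 764 bases into the intron of 850 bases that leads to the flop exon, and its frame stops after 767 of 883 codons, 13 bases past that boundary. Gria2-204, a second retained intron named after its values were seen, had 8.29 and 7.96 TPM. It runs through the intron of 440 bases after exon 10, then through coding sequence of the full-length form and on into a further intron. Its frame stops in the first of these introns, after 494 codons.

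The most abundant Gria4 transcript was Gria4-203, annotated as protein-coding, with 54.0 TPM in area 1 and 58.9 TPM in area 2 from 2072 and 2198 counts. It held 56.2% and 58.1% of the gene's TPM. It leaves the full-length form after exon 10 of 17 and ends with its own exon of 590 bases inside an intron of 7959 bases. Its frame holds 433 of 902 codons (48.0%), so it lacks the flip and flop exons and the exons after them.

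The 30 bases on each side of these boundaries are shown because they mark where the short forms leave the full-length ones. Lower case is the exon shared with the full-length form and capitals are the bases of the short form's own part. On the minus strand of GRCm38, Gria2-206 passes from chr3:80692285-80692314 into chr3:80692255-80692284, and Gria4-203 from chr9:4480178-4480207 to chr9:4478823-4478852.
Gria2-206: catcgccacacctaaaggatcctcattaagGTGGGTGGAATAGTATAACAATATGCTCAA
Gria4-203: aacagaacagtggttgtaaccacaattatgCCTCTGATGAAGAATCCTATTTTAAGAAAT
The Gria2 boundary is continuous in the genome, so unspliced RNA holds it too, whereas the Gria4 boundary is a splice junction.

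**Figure D3:**
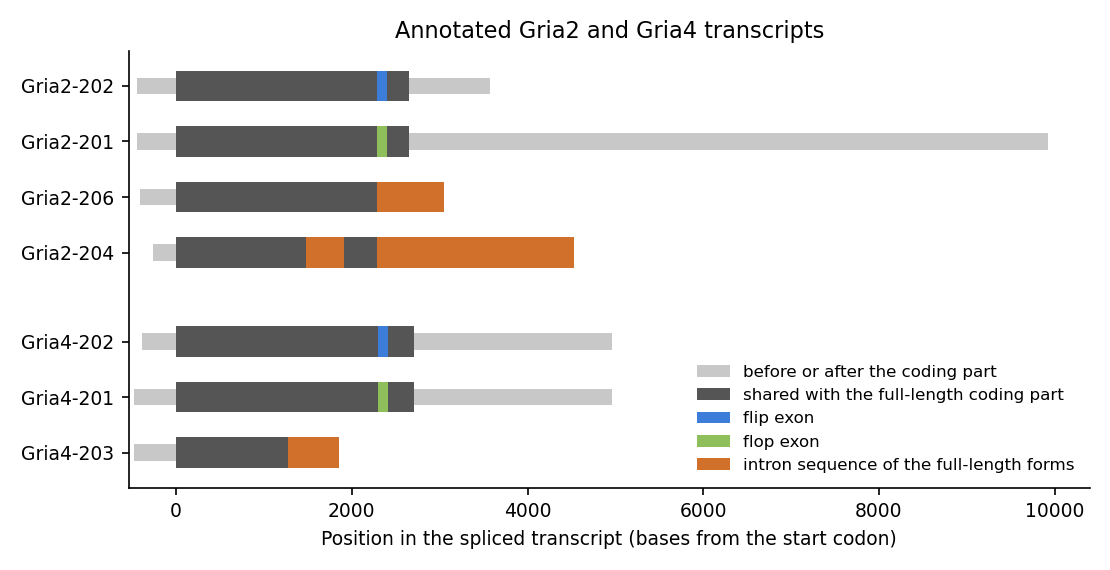
Annotated Gria2 and Gria4 transcripts drawn to scale after splicing, in bases from the start codon, with the flip exon in blue, the flop exon in green and sequence from introns of the full-length forms in orange. The short forms Gria2-206, Gria2-204 and Gria4-203 leave the full-length frame before the flip or flop exon, and Gria2-201 has the longest 3′ end at 7268 bases.

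Full-length coding transcripts alone gave lower levels of the 4 AMPA genes, in the same order among them. Gria2 had 74.2 TPM in area 1 and 59.2 TPM in area 2 (66.7 ± 10.6 TPM), and Gria4 had 42.1 and 42.5 TPM (42.3 ± 0.248 TPM). The Gria2 share of AMPA receptor TPM was then 60.3%, beside 59.6% over all transcripts. Both means lay below the 74.05 TPM of Grik2 over all its transcripts, although in area 1 Gria2 did not (74.2 against 73.4 TPM). Full-length forms of Grik2 could not be told here, so the order of AMPA and kainate genes is given over all transcripts only.

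Grik2 transcripts could be followed only by identifier, since 6 of its 8 transcript IDs matched no transcript in GENCODE M21 and these 6 held 100% of its TPM. ENSMUST00000147808.1 (4365 bases) had 33.7 TPM in area 1 and 31.3 TPM in area 2. ENSMUST00000105487.3 (4800 bases) had 23.3 and 32.2 TPM. The longer of the pair was lower in area 1 and higher in area 2, and no exon structure is given for either. The genes Grik5 and Grik3 have 1 transcript each.

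Differences between the areas were small for the abundant subunits. An exact two-sided binomial test per gene, adjusted by Benjamini-Hochberg over 16636 genes, compared these 2 libraries and not conditions. It placed 4 of the 7 subunits with at least 10 summed counts beyond counting error, against 47.6% of all genes tested, and so near the background.

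Gria2 was higher in area 1, with 667 CPM against 596 in area 2 (log2 ratio of area 2 over area 1 on TPM + 1 of -0.21, adjusted p = 1.10e-16, exact binomial test). Gria4 was higher in area 2, with 310 CPM against 297 in area 1 (log2 ratio 0.08, adjusted p = 0.0363, exact binomial test). Grik2 counts were higher in area 2, with 259 CPM against 235 in area 1 (adjusted p = 7.97e-06, exact binomial test), while its TPM differed by a log2 ratio of 0.02. The effective length the authors used for Grik2 was 4014 bases in area 2 and 3724 bases in area 1. These 3 log2 ratios lay within 0.22, the value below which 75% of the 1831 detected genes of 50 to 200 TPM lay, disregarding sign. That range includes genes of lower level than Gria2. Among detected genes at 7 to 8 in log2(TPM + 1), where Gria2 falls, its ratio lay between the 5th percentile (-0.222) and the 25th (-0.07).

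Grik1 was the subunit with the largest difference, with 21 counts in area 1 and 0 in area 2 (adjusted p = 7.35e-06, exact binomial test). Its CPM in area 1 was 6.75 times the floor of area 2, taken as 3 counts, with no error allowed on the 21 counts. Grik5, Gria3 and Grik3 were not called, with adjusted p of 0.311, 0.383 and 0.18 by the exact binomial test and log2 ratios of -0.15, -0.15 and -0.09. Reads amplified by Smart-seq are not independent molecules, and with counts divided by 10 none of the 7 was called.

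**Figure D4:**
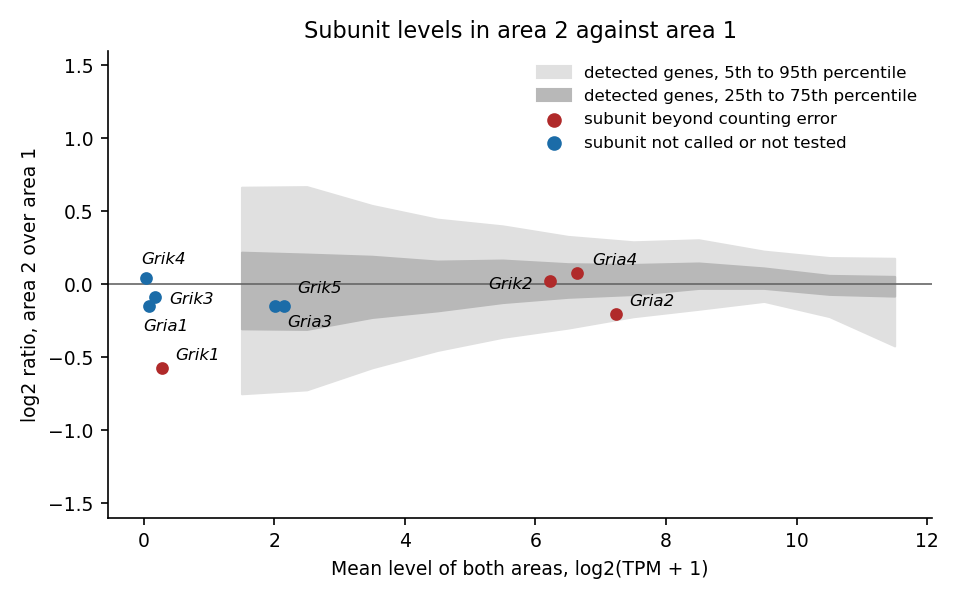
Log2 ratio of TPM + 1 in area 2 over area 1 against the mean level of both areas, log2(TPM + 1), with red points for the 4 subunits beyond counting error and blue points for the others; grey bands hold the middle 50% (dark) and 90% (light) of detected genes in bins of 1 log2 unit. Gria2 at -0.21 lies below 0, Gria4 at 0.08 and Grik2 at 0.02 lie just above it, and Grik1 lies furthest from 0 at -0.58.

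Markers of several cell types moved between the areas as well. Over all genes beyond counting error, 3986 were higher in area 1 and 3937 in area 2. All 6 granule neuron markers had more TPM in area 2, and 5 of them were beyond counting error, against 47.6% of all genes tested. Of 7 Golgi cell markers, 6 were higher in area 1, and their sums were 47.35 TPM in area 1 and 34.95 TPM in area 2. Of 5 unipolar brush cell markers, 3 were higher in area 1, and Lmx1a among them had 31 counts in area 1 and 0 in area 2. Of 7 Purkinje cell markers, 4 were higher in area 2. Higher in area 1 were 6 of 7 Bergmann glia and astrocyte markers and 3 of 4 molecular layer interneuron markers. All 6 oligodendrocyte precursor markers were higher in area 2. All 5 oligodendrocyte markers were higher in area 2, while 4 of 5 microglia markers (sums of 84.8 TPM in area 1 and 63.8 TPM in area 2) and all 4 endothelial markers (214.7 and 170.1 TPM) were higher in area 1. All 4 red blood cell genes were higher in area 1, summing to 5036 TPM there and 388.5 TPM in area 2. The part of these cells in the differences of Gria2 and Grik1 was not tested.

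RNA of genes whose products assemble and escort AMPA receptors spanned a wide range of levels. Of 17 such auxiliary and biogenesis genes, 11 were detected in both areas, against 50.4% of protein-coding genes, with a median of 2.31 TPM over the 17. Frrs1l, an endoplasmic reticulum factor in AMPA receptor assembly, led with 102.2 TPM in area 1 and 100.3 TPM in area 2 (101 ± 1.37 TPM). Porcn, an enzyme also found in native AMPA receptor complexes, was at 44.3 ± 4.84 TPM and Abhd6, a lipase that limits their surface delivery, at 36.1 ± 2.72 TPM. Cacng2, which encodes stargazin and was named after its values were seen, had 5.67 TPM in area 1 and 6.61 TPM in area 2 (6.14 ± 0.665 TPM). By the exact binomial test, 6 of 15 tested genes of the list were beyond counting error (2 higher in area 1 and 4 in area 2), against 47.6% of all genes tested.

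The kainate auxiliary genes differed widely in level. Neto2, whose product slows kainate receptor desensitization, had 52.2 TPM in area 1 and 51.0 TPM in area 2 (51.6 ± 0.870 TPM), from 4932 and 4682 counts. Its paralog Neto1 had 0.1 TPM in area 1 and 0.17 TPM in area 2, from 6 and 10 counts. Neither was called between areas. Neto2 lay below Grik2 in both areas.

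Among 17 trafficking and anchoring genes, 13 were detected, with a median of 8.13 TPM. Nsf, an ATPase that binds the Gria2 product and helps keep it at the membrane, was at 151.5 ± 10.1 TPM. Dlg1, a scaffold protein of the postsynaptic density, was at 88.7 ± 3.97 TPM, and Nsg1, an endosomal protein in receptor recycling, at 53.2 ± 3.14 TPM. Nptx2, which encodes a secreted pentraxin that clusters AMPA receptors, had 0 counts in both libraries. Of 14 tested genes of the list, 7 were called by the exact binomial test (4 higher in area 1 and 3 in area 2), against 47.6% of all genes tested.

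Adarb1, the enzyme that edits the pore codon of Gria2, had 37.2 TPM in area 1 and 35.3 TPM in area 2 (36.25 ± 1.34 TPM). Adar was at 7.21 ± 2.13 TPM and Adarb2, for which no editing activity is known, at 0.27 ± 0.113 TPM. Of 3 tested, 2 were called, against 47.6% of all genes tested. These were Adarb1 and Adar, both higher in area 1, with adjusted p of 1.22e-10 and 1.24e-05 (exact binomial test). Adarb1 had 2508 counts in area 1 and 1968 in area 2, while its TPM differed by a log2 ratio of -0.07. Editing itself was not analysed here.

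Of 8 other ionotropic glutamate receptor genes, 5 were detected, with a median of 1.45 TPM. Grin1, the obligatory NMDA receptor subunit, was at 47.25 ± 0.870 TPM, below Gria2, Gria4 and Grik2. Grin2c, the NMDA subunit typical of mature granule cells, was at 20.99 ± 0.820 TPM, and Grin2a, an NMDA subunit of mature neurons, had 9.66 TPM in area 1 and 10.3 TPM in area 2. Of 7 tested, 1 was called by the exact binomial test, and was higher in area 1, against 47.6% of all genes tested.

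**Figure D5:**
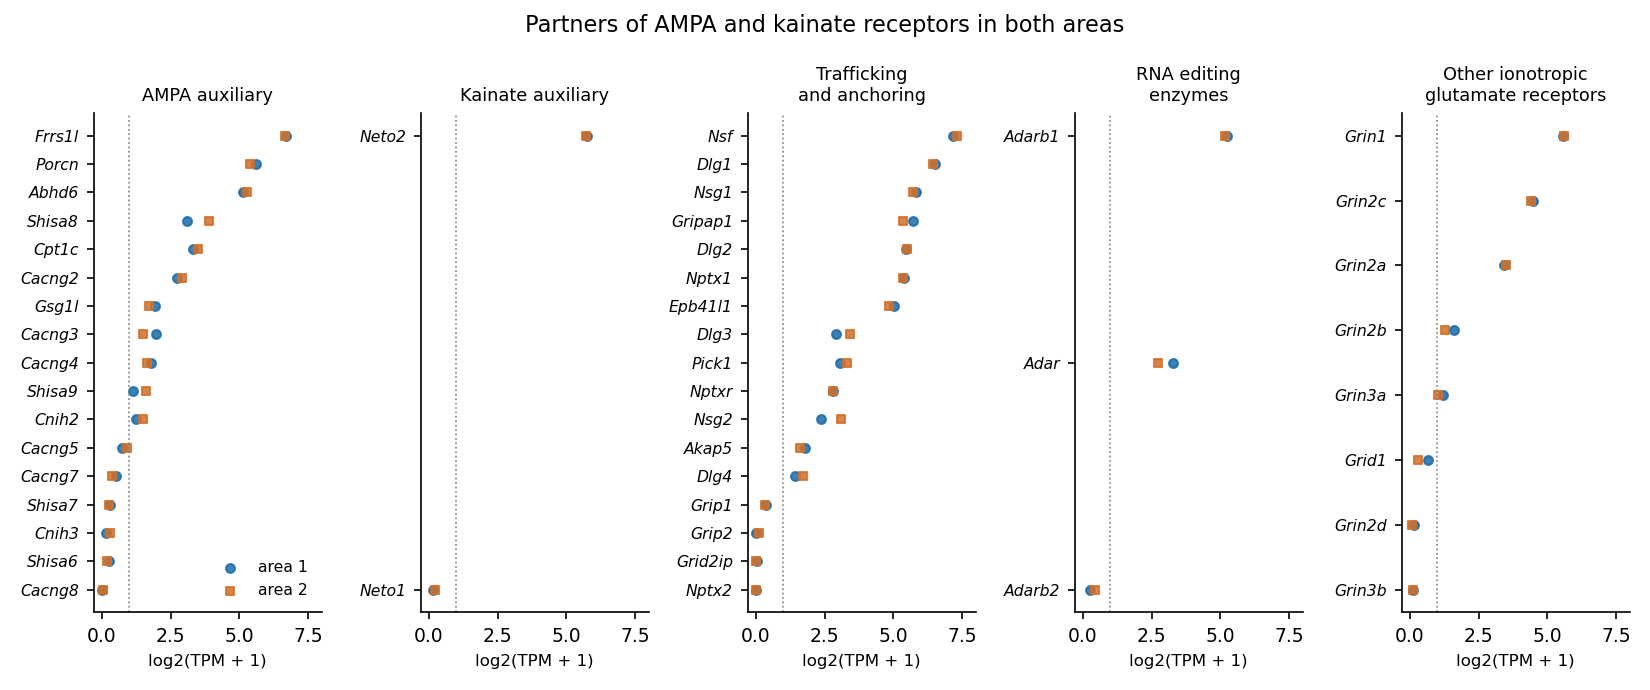
Level in log2(TPM + 1) of auxiliary, trafficking, editing and other receptor genes, ordered by mean within each list, with a circle for area 1, a square for area 2 and a dotted line at 1 TPM. Frrs1l, Neto2, Nsf, Adarb1 and Grin1 head their lists, at means of 101, 51.6, 151.5, 36.25 and 47.25 TPM.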

How the data were processed

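Both gene tables and both transcript tables of the 2 libraries were used. Per the notes deposited with the samples, the build was mm10 (GRCm38) and the annotation GENCODE M4; the aligner, the counter, filters and strand setting were not given in the sources used here. The deposited expected counts are estimated counts that share reads among similar genes and transcripts. The deposited TPM and FPKM values were scaled by the authors to length and library size, per the file headers, and FPKM was not used. The deposited percent column is a transcript's part of its gene's TPM. The deposited score columns give bounds of an interval on TPM, of unstated level, and an SD of the count over read assignments. For Gria2 and Gria4 the deposited TPM lies above that interval, and for Gria1 and Grik1 in area 2 it lies below. These tables hold 69691 rows; 43346 have Ensembl IDs, of which 42462 were named by GENCODE M21 without the ID version, and 34 of the 40 subunit transcripts matched M21 (30 with the same length).

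Flip and flop exons were found in M21 as mutually exclusive exons of 115 bases, and sequences come from its transcripts. Gria4-202 has a different length in M4 (5441 bases) and M21 (5352 bases). No gene on the opposite strand overlaps a subunit gene. Within Grik2 lies the sense-intronic gene Gm26543 (121 and 186 counts), whose reads could be split either way.

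Detection needed a TPM of 1 and an expected count of 5 in each area. Expected counts were rounded to whole numbers for the two-sided exact binomial test (scipy 1.17.1; Python 3.11.15), run on genes with a summed count of at least 10 at an adjusted p of 0.05 and checked on simulated data. TMM factors came from edgeR 4.0.16. Log2 ratios use TPM plus a pseudocount of 1. Floors are 3 counts and cover counting error only. All 9 subunits were named, transcripts with a mean share of at least 10% or a flip or flop exon of a detected gene, the top 3 of each list with members at 0, and the 3 protein-coding genes nearest in level. 1 listed gene is not reported here. Members and lists were chosen with earlier results of these data known. Alternatives were posterior mean TPM, counts without length, other detection thresholds and pseudocounts, and protein-coding transcripts only for flip shares. Further ones were TMM, no count filter, counts divided by 10 and leaving out each area. Alternatives on full-length transcripts and forms without either exon were chosen after seeing the data.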

Additional observations from a re-analysis of the deposited data

How the results depend on the processing

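Without length normalization, on expected counts, the Gria2 share of AMPA receptors was 66.65%, the Gria4 share 32.1% and the kainate share of both families 21.55%. On transcript counts the flip share of Gria2, with the form of both exons on the flip side, was 36.55%, which puts flop above flip. The forms with neither exon then took 38.05% of Gria2 and 35.9% of Gria4. Long transcripts weigh more in counts by construction. With counts divided by 10 before the test, 0 subunits were beyond counting error instead of 4, and 117 genes in all. With TMM scaling or no filter the number stayed 4. The TMM factors were 1.00017 in area 1 and 0.999828 in area 2, so that scaling changed the library sizes very little. With 2 areas, leaving out either returns the value of the other, so this only restates the spread between areas. It gave Gria2 shares of 57.3% to 61.9%, Gria4 36.9% to 41.5%, Grik2 94.4% to 95.7%, Grik5 4.15% to 4.74% and kainate 23.0% to 24.2%. It gave flip shares of 56.9% to 63.5% for Gria2 and 31.25% to 43.8% for Gria4, and shares of forms with neither exon of 51.7% to 54.4% for Gria2 and 56.2% to 58.1% for Gria4. The number of subunits detected was 5 under every threshold, under posterior mean TPM and in each area alone. All 27 alternative log2 ratios between areas kept their sign. A change of pseudocount cannot alter a sign, so only the ratios on TMM-scaled CPM could have changed it. Of the 27, 13 moved in size, those of subunits near 0 most. No paired analysis was possible because there is 1 group with no contrast. Grik1, Grik3, Gria1 and Grik4, at 0 to 25 counts a library, are limited by depth.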

Other observations

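Genes that regulate neuronal splicing were abundant in both areas. Of 12 listed, 11 were detected, with a median of 42.85 TPM, and the highest were Celf4 at 130.5 ± 2.67 TPM, Rbfox3 at 93.3 ± 1.28 TPM and Mbnl2 at 89.6 ± 9.89 TPM (SD, n = 2). By the exact binomial test, 6 of the 12 were beyond counting error (2 higher in area 1 and 4 in area 2), against 47.6% of all genes tested.

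Over both areas, the protein-coding genes nearest to each detected subunit in log2(TPM + 1) were Pdhb, Ift81 and Eapp for Gria2, Uchl5, Hdhd2 and Aktip for Gria4, and Pde6d, Arid4b and Exosc7 for Grik2. For Gria3 they were Faap100, Shkbp1 and Hdx, and for Grik5 9130023H24Rik, Slc39a3 and Gm21994. The distances ran from 0.0019 (Pde6d) to 0.048 (Eapp). With 2 areas, nearness says only that the levels were alike.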
